A study of Mus musculus with 4 samples.

Results

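Toll-like receptors are membrane proteins with which macrophages detect parts of microbes, and their transcripts were followed here in alveolar macrophages (AMs), which live in the airspace of the lung. The genes were the 10 whose symbol in the gene count table is Tlr1, Tlr2, Tlr3, Tlr4, Tlr5, Tlr6, Tlr7, Tlr8, Tlr9 or Tlr13, out of 54532 genes, and all 10 passed the filter on low counts. Bulk RNA-seq was done on AMs of female wild-type mice, which the study's methods give as BALB/c mice 8 to 10 weeks old. The Control group held 2 libraries from mice with no tumor. The Tumor group held 2 libraries from mice that received 4T1 mammary carcinoma cells, a mouse line that metastasizes to lung, in the mammary fat pad 2 weeks before. No gene was altered in either group, and 4T1 is a single transplanted line. The sources used here do not say whether the libraries of a group came from separate or pooled mice, so p-values measure the spread between these libraries, which may be technical.

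The family divides by where its members sit. At the cell surface, TLR2 pairs with TLR1 or TLR6 to bind bacterial lipoproteins, TLR4 binds lipopolysaccharide with the help of CD14 and MD-2, and TLR5 binds flagellin. Other members sit inside endosomes, to which the chaperone UNC93B1 carries them. There TLR3 binds double-stranded RNA, and TLR7 and, at least in humans, TLR8 sense single-stranded RNA and its breakdown products. TLR9 senses DNA with unmethylated CpG, and TLR13, which humans lack, senses bacterial ribosomal RNA. All members of the family but TLR3 signal through the adaptor MYD88, while TLR3 uses TRIF, encoded by Ticam1, which TLR4 uses as well. AMs meet inhaled microbes first, and their receptors switch on cytokine genes such as Tnf and Il1b.

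Library totals ran from 16167147 to 19205737 counts, and replicates correlated at 0.994 in Control and 0.992 in Tumor in log2 CPM, CPM being counts scaled to a common total by TMM. By the quasi-likelihood test of edgeR on 14256 genes, 53.8% passed a Benjamini-Hochberg adjusted p of 0.05, with 29.0% higher and 24.8% lower in AMs of 4T1 tumor-bearing mice. A change of at least 2-fold was reached by 15.9%. All 13 AM marker genes were lower in Tumor, with sums of 17923 and 17992 CPM in Control and 11935 and 12070 CPM in Tumor, and Chil3 and Mrc1 remained high. Markers of neutrophils, of eosinophils, and of basophils or mast cells were higher. The 12 neutrophil genes, all called higher, summed to between 119 and 120 CPM in Control and to between 4615 and 4641 CPM in Tumor, and 4 of them were at the floor of 3 counts or fewer in both Control libraries. The 4 eosinophil genes, all called higher, summed to between 0.480 and 0.507 CPM in Control and to between 2141 and 2158 CPM in Tumor. The 6 basophil and mast cell genes, all at the floor in Control, summed to between 64.0 and 75.0 CPM in Tumor. In bulk RNA, fewer cells of a type and less RNA per cell cannot be told apart. For this reason each receptor is also given after scaling on the AM marker list, under which the median over all genes went from 0.02 to 0.70 on the log2 scale. This scaling called 80.1% of genes higher and 2.85% lower. The study describes AMs as CD45+ CD11b- CD11c+ SiglecF+ cells, and the gate for the sequenced cells is not given in the sources used here.

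Of the 10 receptor genes, 8 passed the test. Tlr1, Tlr6 and Tlr13 rose in AMs of tumor-bearing mice, Tlr2, Tlr4, Tlr5, Tlr7 and Tlr8 fell, and Tlr3 and Tlr9 did not pass. The share of all genes called was 53.8%. The median log2 fold change was -0.30 over the 10 members and 0.02 over all genes tested. In 9 of the 10 genes the CPM values of the Control and Tumor libraries did not overlap, Tlr3 being the exception. The same held for 75.1% of all genes tested. Only Tlr1 and Tlr2 passed the test with a change of at least 2-fold, which 15.9% of all genes did.

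**Figure D1:**
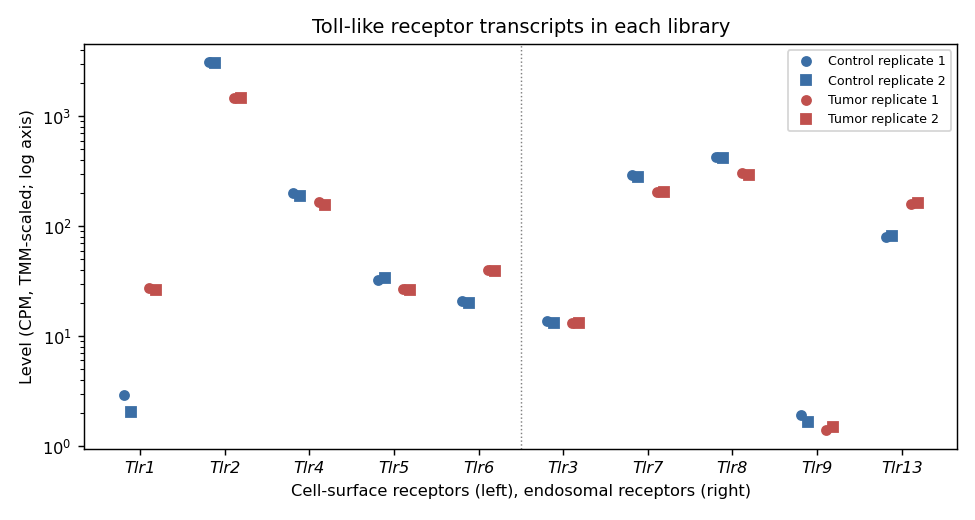
Level of each Toll-like receptor gene in every library, in CPM on a log axis. Blue symbols are Control and red symbols Tumor, with circles for replicate 1 and squares for replicate 2. The Control and Tumor symbols of Tlr1 stand farthest apart, at 2.03 to 2.93 CPM and 26.1 to 27.3 CPM, and those of Tlr3 lie on top of each other.

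Tlr2, the partner shared by TLR1 and TLR6, was the most abundant member by far. It stood at 3094 and 3084 CPM in Control and at 1464 and 1452 CPM in Tumor. Both Tumor libraries lay below both Control libraries by a distance much larger than the spread within either group. Its mean fell from 3089 ± 7.08 CPM (SD, n = 2) to 1458 ± 8.68 CPM (SD, n = 2). This was a log2 fold change of -1.08 ± 0.02 (SE), or 2.12-fold lower (edgeR adjusted p = 6.73e-28). It was the only member still called lower after scaling on the AM list, at a log2 fold change of -0.40 and an edgeR adjusted p of 1.95e-21. Under that scaling 8 of the 13 AM marker genes were called higher and 5 lower, from -1.44 for Fabp4 to 0.52 for Siglecf. Tlr2 thus lay within the spread of the marker genes, near Lpl at -0.40. Tlr2 (ENSMUSG00000027995) lies on chromosome 3 from 83836272 to 83841767 on the minus strand in GRCm38.

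Tlr1, the partner of TLR2 for triacylated lipoproteins, changed the most. It stood at 2.93 and 2.03 CPM in Control, from 55 and 32 counts, and at 27.3 and 26.1 CPM in Tumor, from 472 and 512 counts. The Control libraries differed from each other by more in proportion than the Tumor libraries, and the groups were far apart. The mean rose from 2.48 ± 0.64 CPM (SD, n = 2) to 26.7 ± 0.82 CPM (SD, n = 2). This was a log2 fold change of 3.40 ± 0.15 (SE), or 10.6-fold higher (edgeR adjusted p = 3.6e-17). Leaving out each library in turn gave log2 fold changes between 3.16 and 3.70.

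Tlr6, the partner of TLR2 for diacylated lipoproteins, rose as well but less. It stood at 20.7 and 20.1 CPM in Control and at 39.9 and 38.9 CPM in Tumor. The mean went from 20.4 ± 0.40 CPM (SD, n = 2) to 39.4 ± 0.72 CPM (SD, n = 2). On the log2 scale the change was 0.95 ± 0.08 (SE; edgeR adjusted p = 1.09e-10). Its 95% interval, 0.78 to 1.12, lay wholly below that of Tlr1, which ran from 3.09 to 3.72. The replicates of each group nearly coincided.

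Tlr1 (ENSMUSG00000044827, chromosome 5, 64924679 to 64933563) and Tlr6 (ENSMUSG00000051498, chromosome 5, 64952031 to 64960097) are neighbours on the minus strand, 18467 bases apart with no gene between. Their sequences are alike. Of the 50-base stretches in the transcripts of Tlr1, 13.6% also occur in Tlr6, and 12.3% of those in Tlr6 occur in Tlr1. Over all other genes, Tlr6 included, Tlr1 shares 15.4% of its stretches. How reads with several matches were counted is not given in the sources used here, so the split of counts between these neighbours is uncertain. Their sum does not depend on how reads were split between them, though it would miss reads left out. It was 442 and 349 counts in Control and 1163 and 1275 counts in Tumor, which is 2.89-fold higher in Tumor in CPM.

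Tlr4, the lipopolysaccharide receptor (ENSMUSG00000039005, chromosome 4, 66827584 to 66930284, plus strand), stood at 200.2 and 189 CPM in Control and at 166 and 156 CPM in Tumor. The ranges did not overlap, though the gap between them was small. The mean fell from 195 ± 7.70 CPM (SD, n = 2) to 161.0 ± 6.90 CPM (SD, n = 2). On the log2 scale the change was -0.28 ± 0.04 (SE; edgeR adjusted p = 6.02e-07). Tlr5, the flagellin receptor (ENSMUSG00000079164, chromosome 1, 182954788 to 182976044, plus strand), fell by a like amount, from 32.1 and 33.5 CPM in Control to 26.6 and 26.0 CPM in Tumor. The log2 change of Tlr5 was -0.32 ± 0.08 (SE; edgeR adjusted p = 0.00177). After scaling on the AM list both turned higher in Tumor, at 0.41 for Tlr4 and 0.37 for Tlr5.

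Among the endosomal receptors, Tlr8 and Tlr7 had the highest CPM. Tlr8 (ENSMUSG00000040522, chromosome X, 167242696 to 167264329) stood at 427 and 417 CPM in Control and at 304 and 290.3 CPM in Tumor. Tlr7 (ENSMUSG00000044583, chromosome X, 167304929 to 167330558) stood at 293 and 278 CPM in Control and at 203.5 and 203.9 CPM in Tumor. In both genes every Tumor library lay below every Control library. Tlr8 changed by -0.51 ± 0.03 (SE) on the log2 scale (edgeR adjusted p = 1.01e-14). Tlr7 changed by -0.49 ± 0.03 (SE; edgeR adjusted p = 3.66e-13). These neighbours lie 40599 bases apart on the minus strand, and no 50-base stretch of their transcripts is shared with another gene. Both were called higher after scaling on the AM list, at 0.18 for Tlr8 and 0.20 for Tlr7.

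Tlr13, the receptor for bacterial ribosomal RNA (ENSMUSG00000033777, chromosome X, 106143204 to 106160493, plus strand), moved the other way. It stood at 80.5 and 82.0 CPM in Control and at 161 and 162 CPM in Tumor. The mean rose from 81.2 ± 1.09 CPM (SD, n = 2) to 161 ± 0.92 CPM (SD, n = 2), so the replicates of each group were close to equal. Tlr13 thus changed by 0.99 ± 0.04 (SE) on the log2 scale, or 1.99-fold (edgeR adjusted p = 9.38e-18). Under AM-list scaling the 3 risers stood at 4.09 for Tlr1, 1.64 for Tlr6 and 1.68 for Tlr13. That scaling rests on genes lower in Tumor and raises the values of all members, so it could not have reversed a rise. The part of the other cell types named above in these rises was not tested.

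Tlr3, the receptor for double-stranded RNA (ENSMUSG00000031639, chromosome 8, 45395665 to 45411080, minus strand), stood at 13.7 and 13.1 CPM in Control and at 13.1 and 13.2 CPM in Tumor. Its groups overlapped, and the log2 fold change was -0.03 with a 95% interval from -0.27 to 0.22 and an edgeR adjusted p of 0.878. A gene on the opposite strand, Gm45542, covers 381 of its 5207 exonic bases and had 0 counts in every library. Tlr9, the CpG DNA receptor (ENSMUSG00000045322, chromosome 9, 106222598 to 106226883, plus strand), was the scarcest, with 36 and 26 counts in Control and 24 and 29 in Tumor. In CPM it stood at 1.92 and 1.65 in Control and at 1.39 and 1.48 in Tumor. The 95% interval of its log2 fold change ran from -1.01 to 0.37, with an edgeR adjusted p of 0.444. No change was shown, and changes within that range were compatible with the counts.

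**Figure D2:**
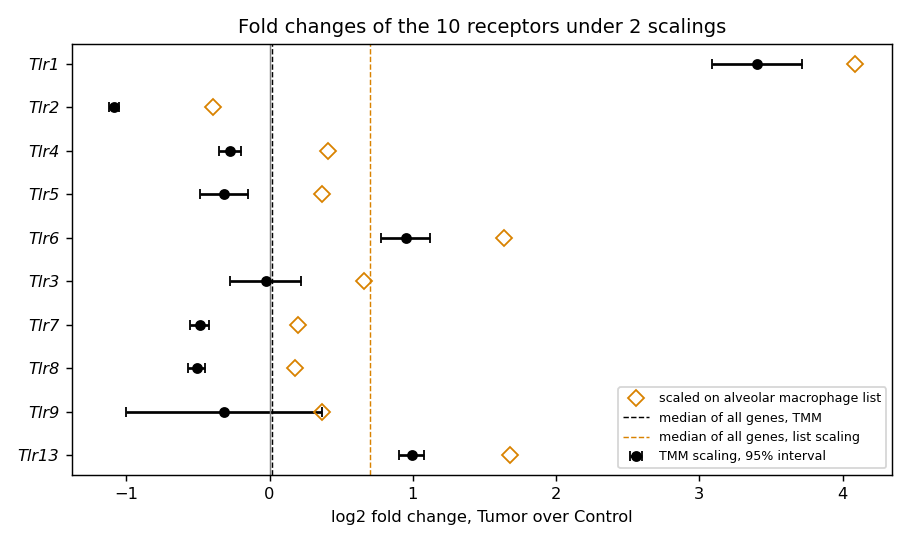
Log2 fold change of each Toll-like receptor gene, Tumor over Control. Filled symbols with bars are the TMM-scaled edgeR estimates with 95% intervals, open diamonds the estimates after scaling on the AM marker list, and dashed lines the median of all genes under each scaling. Tlr1 lies far to the high side at 3.40 and Tlr2 to the low side at -1.08. Between the scalings Tlr3, Tlr4, Tlr5, Tlr7, Tlr8 and Tlr9 change sign.

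AM-list scaling moves the members, and the median of all genes, by nearly the same amount. Setting the members against the median of all genes under it therefore returns their TMM values, lowered by about 0.02, and gives no separate evidence of direction. Relative to that median, Tlr1 stood at 3.38, Tlr13 at 0.97 and Tlr6 at 0.93 on the log2 scale. Tlr2 stood at -1.10, Tlr8 at -0.52, Tlr7 at -0.51, Tlr5 at -0.34 and Tlr4 at -0.29. Tlr3 and Tlr9 stood at -0.04 and -0.34.

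Promoter sequence before the annotated start, from RefSeq on build GRCm38.p6, is shown for the 3 genes that rose and for Tlr2 and Tlr8, which fell. RefSeq windows of 250 bases before and 50 after a start were found for 8 of the 10 members. Transcribed bases are not printed. Each motif below was searched on both strands, and capitals mark matches in the bases shown. GAGGAAG, a form of the site of PU.1, a factor that macrophages need, occurs in 13.6% of all promoter windows. GAAANNGAA, a core of interferon regulatory factor sites, occurs in 8.56%, and the kappaB motif of NF-kappaB occurs in 8.46%. GCGTG, the core of the element bound by the aryl hydrocarbon receptor, which the study concerns, occurs in 32.4%.
Tlr1, chr5:64933564-64933808, minus strand: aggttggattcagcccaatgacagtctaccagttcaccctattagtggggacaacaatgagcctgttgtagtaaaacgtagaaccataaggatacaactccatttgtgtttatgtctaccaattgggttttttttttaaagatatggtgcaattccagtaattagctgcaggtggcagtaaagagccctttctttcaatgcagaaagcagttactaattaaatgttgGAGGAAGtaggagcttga
Tlr6, chr5:64960098-64960298, minus strand: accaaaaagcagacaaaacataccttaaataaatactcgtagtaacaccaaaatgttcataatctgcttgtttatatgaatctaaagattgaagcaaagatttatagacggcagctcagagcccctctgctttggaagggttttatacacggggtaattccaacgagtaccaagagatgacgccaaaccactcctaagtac
Tlr13, chrX:106143025-106143203, plus strand: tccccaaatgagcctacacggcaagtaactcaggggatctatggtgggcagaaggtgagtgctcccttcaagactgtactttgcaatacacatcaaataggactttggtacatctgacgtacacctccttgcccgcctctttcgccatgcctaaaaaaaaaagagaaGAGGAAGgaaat
Tlr2, chr3:83841768-83841858, minus strand: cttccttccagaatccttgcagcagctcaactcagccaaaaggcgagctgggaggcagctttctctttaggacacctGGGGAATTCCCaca
Tlr8, chrX:167264330-167264579, minus strand: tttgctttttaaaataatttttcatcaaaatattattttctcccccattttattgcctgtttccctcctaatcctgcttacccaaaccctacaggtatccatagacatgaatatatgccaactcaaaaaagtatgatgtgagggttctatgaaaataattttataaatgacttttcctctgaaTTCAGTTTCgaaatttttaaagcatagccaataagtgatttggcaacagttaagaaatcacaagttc

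In Tlr1 the GAGGAAG match began 23 bases before the RefSeq start, and in Tlr13 it began 83 bases before. In another RefSeq window of Tlr6, which lies within the annotated gene and is not printed, GAAANNGAA occurred in overlapping matches. Tlr2 held an overlapping pair of kappaB matches, with a further match across the start, and Tlr8 held 1 match to the interferon regulatory factor core on the strand opposite to the one printed. Tlr9 held GAGGAAG and Tlr3 a kappaB match. The window of Tlr5, which fell and is not printed, held none of the motifs. None of the 10 windows of these 8 genes held GCGTG. A match is a string of letters and was not tested as a site of binding, and the lack of one says only that these letters are not in the window.

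Levels were compared between genes per kilobase of exon. In Control the order from high to low was Tlr2, Tlr8, Tlr7, Tlr4, Tlr13, Tlr5, Tlr6, Tlr3, Tlr1 and Tlr9. In Tumor it was Tlr2, Tlr8, Tlr7, Tlr13, Tlr4, Tlr6, Tlr1, Tlr5, Tlr3 and Tlr9. The ranges of neighbours in these orders did not overlap for any of the 9 pairs in either group. Tlr13 passed Tlr4, and Tlr6 and Tlr1 passed Tlr5. Tlr1 went from 0.74 to 7.97 CPM per kilobase, and thereby also passed Tlr3, which stood at 2.57 and 2.52. The span from Tlr2 to Tlr9 was 1998-fold in Control and 1175-fold in Tumor.

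**Figure D3:**
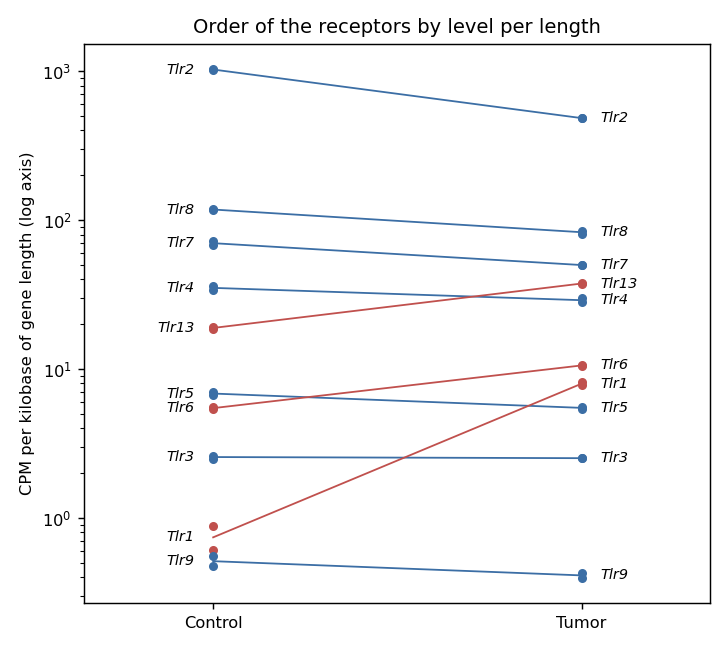
Level of each Toll-like receptor gene per kilobase of exon, in CPM per kilobase on a log axis, in Control and in Tumor. Points are libraries, lines join the group means, red lines rise and blue lines fall. The line of Tlr1 crosses those of Tlr3 and Tlr5, and that of Tlr13 crosses that of Tlr4.

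Tlr2 dominated the family in both groups, and less so in Tumor. Its share of the summed level per kilobase was 79.9% ± 0.34 (SD, n = 2) in Control and 68.1% ± 0.27 (SD, n = 2) in Tumor. Summed over the 10 genes, the family stood at 4166 and 4121 CPM in Control and at 2406 and 2370 CPM in Tumor, 1.74-fold lower. Without Tlr2 the sum stood at 1072 and 1037 CPM in Control and at 942 and 918 CPM in Tumor, 1.13-fold lower. Under AM-list scaling the sum of the 10 genes was 1.08-fold lower in Tumor, and the sum without Tlr2 turned 1.42-fold higher.

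Ratios within a library do not depend on the scaling. Per kilobase, Tlr2 exceeded its partner Tlr1 by 1171-fold and 1689-fold in the Control libraries and by 59.6-fold and 61.8-fold in the Tumor libraries. It exceeded Tlr6 by 185-fold and 190-fold in Control and by 45.4-fold and 46.2-fold in Tumor. The dominance of Tlr2 over both partners was therefore smaller in Tumor, within the limit on Tlr1 and Tlr6 given above. Tlr7 stood at 0.60 and 0.59 of Tlr8 in Control and at 0.59 and 0.62 in Tumor, and these ranges overlapped. Tlr13 stood at 0.16 of Tlr8 in both Control libraries and at 0.44 and 0.46 in Tumor.

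The wider pathway was described with 4 lists of 59 genes, of which 57 were tested, 19 were higher and 26 were lower in Tumor. That is 78.9% called, against 53.8% of all genes. How far other cell types contributed to the values of these lists was not tested. Among 10 co-receptor and chaperone genes 2 were higher and 5 lower. Lbp, named after its values were seen, rose most, from 3 and 6 counts in Control to 173 and 241 in Tumor. Cd14, which hands lipopolysaccharide to TLR4, stood at 1108 and 1114 CPM in Control and at 892 and 918 CPM in Tumor, with a log2 fold change of -0.30 ± 0.02 (SE). Unc93b1, the chaperone of the endosomal receptors, changed by -0.28 ± 0.03 (SE). The scavenger receptor Cd36, which serves TLR2 complexes, changed by -0.45 ± 0.03 (SE). Cd180, a receptor related to TLR4, fell by 0.45 on the log2 scale, while its partner Ly86 rose by 0.27. Ly96, which encodes MD-2, stood at 4.96 and 5.07 CPM in Control and at 8.20 and 5.10 CPM in Tumor and did not pass, with an edgeR adjusted p of 0.104. Under AM-list scaling all 10 genes of this list were called higher.

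Among 20 adaptor, kinase and interferon regulatory factor genes 4 were higher and 11 lower. Myd88 stood at 155 and 160.4 CPM in Control and at 137 and 135 CPM in Tumor, a log2 change of -0.21 ± 0.04 (SE; edgeR adjusted p = 3.57e-05). Ticam1 fell further, by 0.81 on the log2 scale. Ikbke, a kinase of the interferon branch, fell from 41.2 to 17.9 CPM, and Irf5, a factor for cytokine genes, fell from 118 to 78.5 CPM. Irf7, a factor for type I interferon genes, rose from 4.39 to 19.3 CPM, with a log2 fold change of 2.15 ± 0.14 (SE). Tirap, the bridge between MYD88 and TLR2 or TLR4, rose by 0.30 and the kinase gene Irak4 by 0.28 on the log2 scale. Under AM-list scaling 17 of these genes were called higher and 1 lower. Ikbke then stood at -0.51, whereas Myd88 stood at 0.48. Ticam1 at -0.13 and Irf5 at 0.10 were not called.

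Of 14 negative regulators 13 were tested, 8 were higher and 3 lower. Il1rl1, which encodes the receptor of interleukin 33, went from 1.01 and 0.70 CPM in Control to 27.0 and 27.3 CPM in Tumor. Whether the eosinophil, basophil or mast cell transcripts named above came with this rise was not tested. Sigirr and Socs1 also rose, with log2 fold changes of 1.42 ± 0.28 (SE) and 1.31 ± 0.33 (SE). Tnip1, a partner of the ubiquitin-editing enzyme A20, fell from 207 to 85.7 CPM, a log2 change of -1.27 ± 0.04 (SE; edgeR adjusted p = 6.7e-21). Zc3h12a, which encodes an RNase that cuts cytokine transcripts, changed by -0.60 and Tollip by -0.12 on the log2 scale. Irak3, an inhibitor made in macrophages, stood at 42.5 and 45.3 CPM in Control and at 41.4 and 38.5 CPM in Tumor and did not pass. Under AM-list scaling 12 were called higher and 1 lower, and Tnip1 stood at -0.59.

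Of 15 genes that receptor signalling switches on, 14 were tested, 5 were higher and 7 lower. Tnf stood at 2018 and 2050 CPM in Control and at 432 and 429 CPM in Tumor, a log2 change of -2.24 ± 0.02 (SE; edgeR adjusted p = 2.4e-33). The chemokine genes Cxcl10 and Cxcl1 fell by 1.56 and 0.96 on the log2 scale. Acod1, which encodes the enzyme that makes itaconate, moved in the other direction, from 20.0 and 19.6 CPM in Control to 306 and 296 CPM in Tumor. The log2 change of Acod1 was 3.93 ± 0.05 (SE; edgeR adjusted p = 2.94e-30). Il12b and Ccl5 rose from low levels, by 2.80 and 1.94 on the log2 scale. Nos2, named after its values were seen, was at 1 and 0 counts in Control and was at least 35.9-fold higher in Tumor, against a floor of 3 counts per library. Under AM-list scaling 8 genes were called higher and 4 lower, and Tnf stood at -1.55, Cxcl10 at -0.88 and Cxcl1 at -0.27.

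**Figure D4:**
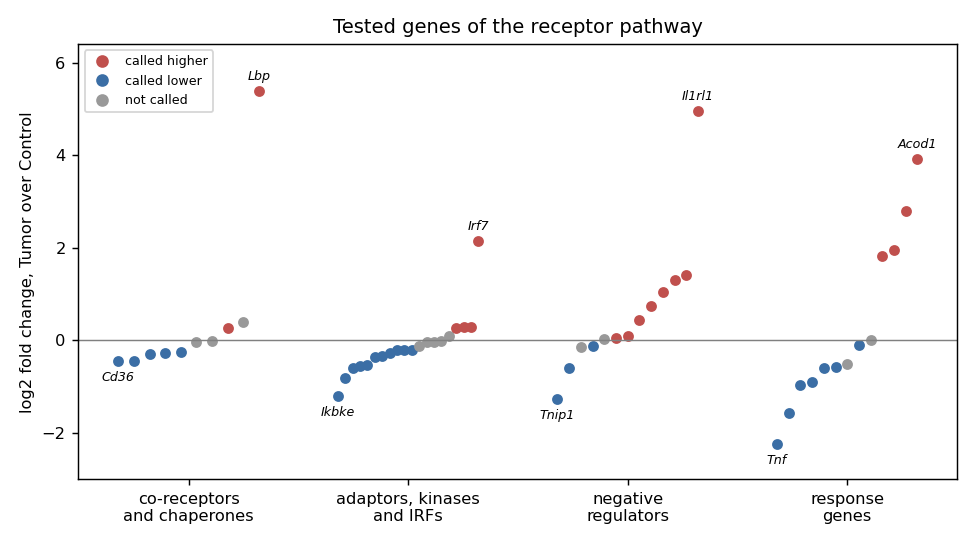
Log2 fold change, Tumor over Control with TMM scaling, of the tested genes of the 4 pathway lists. Red points were called higher, blue points lower and grey points were not called by edgeR, and Nos2 is left out because its Control libraries were at the floor. Tnf lies lowest at -2.24, while Acod1 stands at 3.93. Lbp, at 3 and 6 counts in Control and 173 and 241 in Tumor, was labelled after its values were seen.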

How the data were processed

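Per the labels, the AMs came from female mice, TRIzol was used for RNA and a NEBNext Ultra kit for the libraries. According to the study's methods, the authors aligned paired-end reads with HISAT2 2.0.5 and counted them per gene with featureCounts. The deposited values used here are whole-number counts per gene, not normalized. Genome build, annotation, strand setting and the handling of multi-mapping reads are not given in the sources used here. Coordinates of the 10 members were identical in GENCODE on GRCm38.

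Members were matched by gene symbol. The members and all gene lists were chosen with earlier results of these data known. Counts were fitted in R 4.3.3 with edgeR 4.0.16 (TMM scaling, filterByExpr with a minimum count of 10, quasi-likelihood test, group as the single term), which left 14256 of 54532 genes, adjusted by Benjamini-Hochberg over all of them with a threshold of 0.05. The scripts were tested on simulated data. CPM uses TMM-scaled library sizes, and the SD is over 2 libraries. With 2 against 2 libraries an exact permutation test cannot go below p = 0.333. Named from each pathway list were a set of receptor partners, adaptors and the inhibitor Irak3 and, of the called genes above 3 counts in every library, the 3 that rose most and the 3 that fell most. Alternatives were other scalings, filters and gene lengths, DESeq2 1.42.0, limma-voom (limma 3.58.1), a replicate block, a 2-fold threshold and leaving out each library.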

Additional observations from a re-analysis of the deposited data

How the results depend on the processing

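With 2 libraries per group the calls rest on the spread shared across genes. Every member kept its direction under DESeq2 size factors, both filters, DESeq2, limma-voom, the replicate block and each left-out library. With total counts as library sizes Tlr3, not called, stood at 0.041. AM-list scaling turned Tlr4 (0.41), Tlr5 (0.37), Tlr7 (0.20), Tlr8 (0.18), Tlr3 (0.66) and Tlr9 (0.36), by its construction on genes lower in Tumor. It called 11822 genes, 96.6% of them higher against 53.9% with TMM, 8 members higher and 1 lower, and 47 pathway genes higher and 6 lower. With the 2-fold threshold 2268 genes, 2 members (1 higher and 1 lower) and 15 pathway genes (11 higher and 4 lower) were called.

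With the replicate block 7446 genes, 8 members and 44 pathway genes were called, and same-numbered libraries did not deviate together, with a correlation of -0.003. Leaving out each library gave 6515 to 7470 genes, 8 members each time and 41 to 44 pathway genes, the lone library being assumed to vary like the other group. With the longest transcript as gene length, Tlr2 held 78.4% of the summed level in Control and 66.1% in Tumor, and the order of the members was the same. Depth limits Tlr9 most, at 24 to 36 counts per library.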

Other observations

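Tlr11 and Tlr12, which sense parasite profilin in mice, were at or close to the floor. Tlr11 had 0 and 5 counts in Control and 4 and 7 in Tumor, and Tlr12 had 2 and 3 in Control and 2 and 0 in Tumor.

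Marker lists of further cell types were also read, and their part in the receptor values was not tested. The 6 hepatocyte genes, all at the floor in Control, summed to 618 and 625 CPM in Tumor, with Alb the highest. Of 6 monocyte genes 2 were higher, Ly6c2 and Ccr2, and 3 lower, Cx3cr1, Nr4a1 and Treml4. The 6 genes summed to 913 and 928 CPM in Control and 676 and 674 CPM in Tumor. Most of each sum was Nr4a1, at a mean of 838 CPM in Control and 615.5 CPM in Tumor, so the sums follow that gene. Of 8 dendritic cell genes 2 were higher and 1 lower, with sums of 37.8 and 39.4 CPM in Control and 52.4 and 50.7 CPM in Tumor. Of 5 tested B cell genes 4 were higher. All 6 genes of the list summed to 6.62 and 6.91 CPM in Control and 12.7 and 13.6 CPM in Tumor. Of 4 tested T and NK cell genes 3 were higher, with sums over all 6 genes of the list of 2.08 and 2.28 CPM in Control and 12.7 and 14.3 CPM in Tumor. Of 6 epithelial and endothelial genes 2 were higher and 2 lower.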
